A study of Mus musculus with 12 samples.

Results

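Transcripts of 10 circadian clock genes were followed in glomerulus-enriched RNA from 2 substrains of the albino BALB/c mouse, before and after injury with adriamycin (ADR, doxorubicin hydrochloride), an anthracycline that injures podocytes. The genes were the periods Per1, Per2 and Per3, the output factors Dbp and Tef, the repressors Nr1d1, Nr1d2 and Ciart, and the activators Clock and Arntl. They were taken by their symbols from the count tables, in which all 10 of them were found among 26264 gene symbols. All 10 also passed the filter on low counts that left 17002 genes for testing. The mice were males of 8 weeks, of the substrain BALB/cAjcl (abbreviated AJcl) or BALB/cByJcl (abbreviated ByJcl), kept on 12 hours of light and 12 hours of dark. Each substrain gave 3 libraries from untreated mice (baseline) and 3 from kidneys taken on Day 5 after 1 retro-orbital injection of ADR at 10 mg/kg. Glomeruli were isolated with magnetic beads that lodge in their capillaries, so each library mixes podocytes, endothelium, mesangium and remaining tubule. The hour of day at which kidneys were taken is not given in the sources used here. The labels call the baseline mice untreated, while the protocol also speaks of controls given saline, so injection and anaesthesia cannot be told apart from ADR in comparisons of Day 5 with baseline.

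The mammalian clock is a transcriptional loop that runs in nearly every cell, the kidney's included. BMAL1, the product of Arntl, pairs with CLOCK and activates genes with E-box elements, among them the period genes, Nr1d1, Nr1d2, Dbp, Tef and Ciart. Period proteins, with the cryptochromes, then repress that pair, while the Nr1d1 and Nr1d2 products (REV-ERBs) repress Arntl through ROR elements (ROREs), so that Arntl and the E-box targets peak at opposite times of day. DBP and TEF bind D-box elements and carry the rhythm on to further genes.

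Promoters of 4 members are shown because they hold elements of that loop. Per3, Tef and Arntl are genes called below, and Ciart, called in no comparison by edgeR, held the most E-boxes. The sequences are RefSeq promoters from a table built on GRCm38.p6, each 250 bases before and 50 after an annotated start. Each was placed in GRCm39 by its only exact match. The table held 14 promoters for 9 of the 10 members and none for Per2. Capitals mark the element, read 5′ to 3′ on the gene's strand.
Per3, chr4:151129073-151129372, minus strand, 2 D-boxes: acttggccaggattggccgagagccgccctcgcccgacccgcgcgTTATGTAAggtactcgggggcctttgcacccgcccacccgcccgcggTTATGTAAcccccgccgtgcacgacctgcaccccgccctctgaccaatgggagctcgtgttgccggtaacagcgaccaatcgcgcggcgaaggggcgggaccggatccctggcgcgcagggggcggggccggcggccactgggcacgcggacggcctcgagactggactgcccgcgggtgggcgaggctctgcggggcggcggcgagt
Tef, chr15:81686624-81686923, plus strand, 1 E-box: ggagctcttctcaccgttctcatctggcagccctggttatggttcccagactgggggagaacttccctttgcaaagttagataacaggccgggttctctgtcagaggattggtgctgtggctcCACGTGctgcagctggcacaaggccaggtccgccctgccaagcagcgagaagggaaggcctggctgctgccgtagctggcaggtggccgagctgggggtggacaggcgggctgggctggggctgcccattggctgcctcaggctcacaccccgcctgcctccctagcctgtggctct
Ciart, chr3:95789491-95789790, minus strand, 3 E-boxes: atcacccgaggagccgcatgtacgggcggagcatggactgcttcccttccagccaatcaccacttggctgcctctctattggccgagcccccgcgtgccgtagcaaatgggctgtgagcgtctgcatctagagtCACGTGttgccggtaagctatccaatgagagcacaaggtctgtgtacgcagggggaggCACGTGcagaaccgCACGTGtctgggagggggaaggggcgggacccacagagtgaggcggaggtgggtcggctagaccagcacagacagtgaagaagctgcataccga
Arntl, chr7:112806468-112806767, plus strand, 1 RORE: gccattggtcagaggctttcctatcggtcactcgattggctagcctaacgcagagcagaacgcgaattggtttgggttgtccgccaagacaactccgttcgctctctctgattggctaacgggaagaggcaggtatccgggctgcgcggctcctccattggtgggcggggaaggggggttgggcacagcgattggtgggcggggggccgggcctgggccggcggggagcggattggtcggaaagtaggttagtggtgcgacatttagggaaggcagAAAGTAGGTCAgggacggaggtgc

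The elements were searched by their letters on both strands: the E-box CACGTG, its variant CACGTT, the D-box TTANGTAA, the cyclic AMP response element TGACGTCA and the RORE. An E-box lay in 4 of the 14 promoters, of 3 genes, against 7.15% of 32851 promoters in the table. In Ciart its copies began at positions -116, -58 and -44 from the start, in Tef at -127 and, in the promoter of its other start, at -138, and in Per1 at -166. Nr1d1 had the variant at -28 on the opposite strand, an element in 4.68% of all promoters. The D-boxes of Per3 began at -205 and -158, and 2.32% of all promoters held such an element. The RORE of Arntl began at position 27 after the start, against 0.384% of all promoters. No member promoter held the cyclic AMP response element (1.79% of all promoters), and the windows of Dbp, Nr1d2 and Clock held none of the 5. A match describes these letters only.

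Total counts ran from 42198416 to 54687045 per library, and the lowest count of any member was 48, for Arntl in ByJcl baseline replicate 1. Between 77.1% and 82.9% of the counts from 1 to 49 in a library were even, so the counts may hold both mates of a read pair, and totals and counts cannot be read as numbers of fragments. The isolation gave podocyte marker genes a summed level of 7031 to 20649 CPM (counts scaled to a common library total) and tubule markers 323 to 3736. AJcl Day 5 replicate 1 had the lowest ratio of the 2 sums, 2.47 against 4.56 to 52.6 in the other libraries. The study excluded that library for reduced purity. Tests therefore use 11 libraries, and levels are given for all 12. All libraries are labelled as batch 1, but the counts of untreated and ADR-treated mice were tabulated separately, and the table and the effect of ADR cannot be told apart. The labels call the libraries replicates without naming animals, and p-values measure the spread between these libraries.

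Levels are CPM scaled by edgeR's TMM method. Levels per kilobase of exon (RPKM) used exons merged over all annotated transcripts of a gene, so comparisons between genes are approximate. The median RPKM over 12 libraries was highest for Tef, at 48.3 (range 34.4 to 76.7). Per1 followed at 41.9 (18.0 to 66.0), Per2 at 32.5 (17.7 to 51.2), Nr1d2 at 30.0 (21.9 to 42.8), Nr1d1 at 25.6 (11.05 to 97.1) and Dbp at 24.2 (9.94 to 97.4). The ranges of neighbouring genes in this order overlapped. Per3 was at 10.9 and Clock at 7.42, and Ciart was lower at 2.48 (0.850 to 7.68). Arntl was the lowest at 0.288 RPKM (0.0883 to 0.920), although its partner Clock was at a median of 7.42. Arntl therefore rests on few counts, 48 to 494 per library, whereas Tef had 13179 to 29370.

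**Figure D1:**
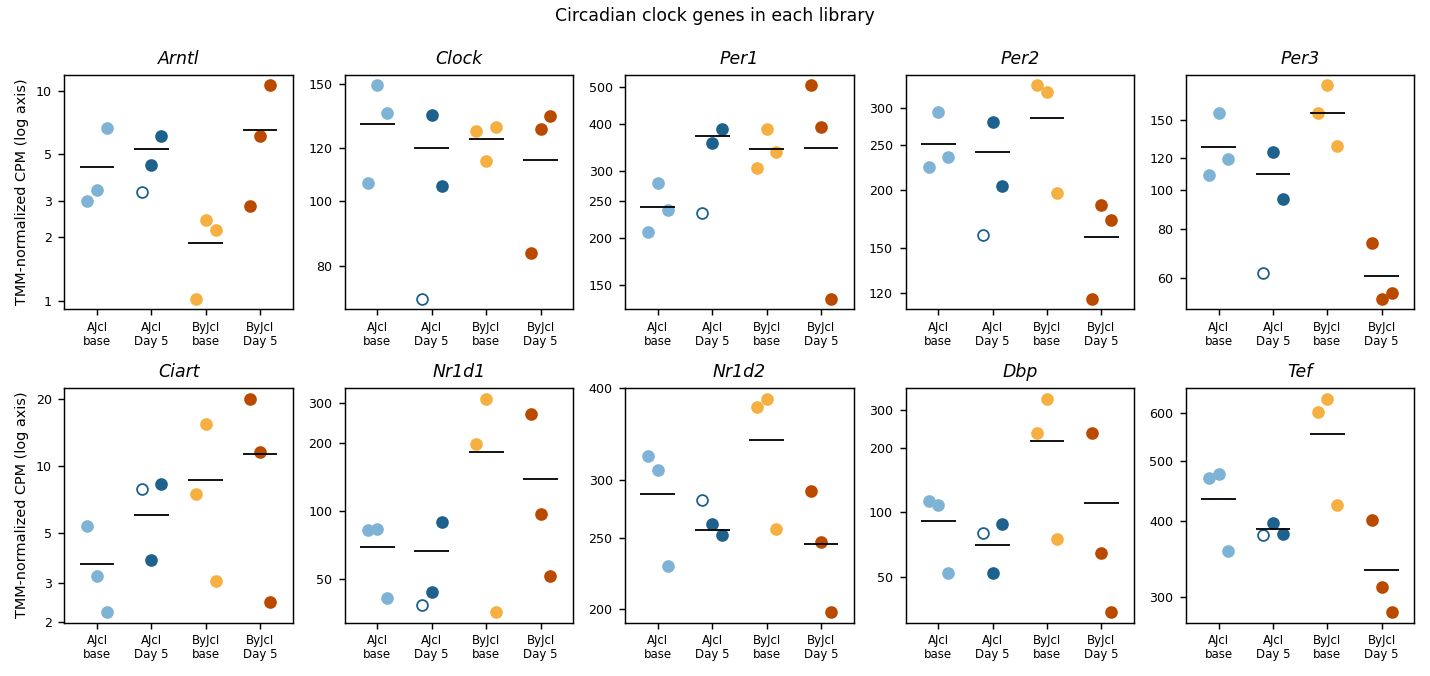
Level of each clock gene in each library as TMM-normalized CPM on a log axis, by substrain and time (base, baseline), with replicates 1 to 3 from left to right. Lines are group means over the tested libraries, and the open circle is AJcl Day 5 replicate 1, left out of the tests. The 3 ByJcl Day 5 libraries of Per3 (53.4 to 73.7 CPM) lie below all ByJcl baseline libraries (129 to 183 CPM), whereas Nr1d1, Dbp and Ciart spread widely within ByJcl.

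The main change was in ByJcl between baseline and Day 5 after ADR, where Per2, Per3 and Tef fell and Arntl rose. These 4 of 10 members were called at an adjusted p below 0.05 by the quasi-likelihood test of edgeR, adjusted over all tested genes by the Benjamini-Hochberg method, against 10.6% of all tested genes. Of the 3 that fell, the background of genes called lower was 4.83%, and of the 1 that rose it was 5.75%. In each of the 4 genes the 3 ByJcl Day 5 libraries did not overlap the 3 ByJcl baseline libraries. Non-overlap of that kind occurred in 17.7% of tested genes for lower and 15.9% for higher values. The median log2 fold change of the 10 members was -0.40, and that of all tested genes was 0.01. In bulk RNA, fewer cells of a type and less RNA per cell cannot be told apart. Collection hour is not given for either time, and its part in these changes cannot be told apart from that of ADR.

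Per3, the period gene least needed for rhythm in the mouse, had the smallest adjusted p. Its ByJcl level was 156, 183 and 129 CPM at baseline and 73.7, 53.4 and 55.1 CPM on Day 5. In AJcl it was 109, 156 and 120 CPM at baseline and 61.9, 124 and 94.9 CPM on Day 5, the first of these from the excluded library. All ByJcl Day 5 libraries were below every baseline library of either substrain, while the tested AJcl Day 5 libraries lay within or just below the AJcl baseline range. The log2 fold change in ByJcl was -1.33 ± 0.19 (SE), a fall to 0.397 of baseline (edgeR, adjusted p = 0.00295). In AJcl it was -0.21 ± 0.21 (edgeR, adjusted p = 0.816). Per3 stayed below the threshold when each of the 11 libraries was left out in turn, with log2 fold changes between -1.51 and -1.22 (edgeR, highest adjusted p = 0.0180).

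Per2, a core repressor of the loop and the period gene whose loss disturbs rhythm most, had ByJcl levels of 336, 326 and 197 CPM at baseline and 117, 186 and 172 CPM on Day 5. The lowest baseline library was only slightly above the highest Day 5 library. The log2 fold change was -0.83 ± 0.23 (SE; edgeR, adjusted p = 0.0424). AJcl libraries had 224, 294 and 235 CPM at baseline and 159, 280 and 203 CPM on Day 5, and the groups overlapped (log2 fold change -0.04 ± 0.26; edgeR, adjusted p = 0.971). With all 12 libraries in the fit, Per2 in ByJcl missed the threshold at the same size of change (log2 fold change -0.82; edgeR, adjusted p = 0.0747).

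Tef, a D-box activator of the PAR bZIP family, was at 602, 633 and 425 CPM in ByJcl at baseline and 402, 312 and 284 CPM on Day 5. Replicates 1 and 2 at baseline stood well above the rest, and baseline replicate 3 and Day 5 replicate 1 were close. The log2 fold change was -0.70 ± 0.19 (SE; edgeR, adjusted p = 0.0384). AJcl had 470, 476 and 356 CPM at baseline and 379, 396 and 380 CPM on Day 5, with all Day 5 values inside the baseline range.

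Arntl, which encodes the activator BMAL1, moved the opposite way. Its ByJcl levels were 1.02, 2.41 and 2.18 CPM at baseline and 2.82, 6.07 and 10.6 CPM on Day 5. Every Day 5 library was above every baseline library, and the Day 5 libraries differed 3.78-fold among themselves. The log2 fold change was 1.82 ± 0.49 (SE), a 3.53-fold rise (edgeR, adjusted p = 0.0371). AJcl had 2.99, 3.35 and 6.67 CPM at baseline and 3.30, 4.43 and 6.11 CPM on Day 5, which overlapped (log2 fold change 0.31 ± 0.52; edgeR, adjusted p = 0.899). The ByJcl baseline libraries were the lowest of all 12, so the Day 5 rise starts from a level below that of AJcl.

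Only Per3 was called in ByJcl when ByJcl baseline replicate 1 or 2, or ByJcl Day 5 replicate 2 or 3, was left out, where 837, 729, 684 and 1598 genes were called. Over the 11 such fits Per2 ranged from -1.04 to -0.66 in log2 fold change and passed in 5, Tef from -0.88 to -0.57 and passed in 5, and Arntl from 1.30 to 2.17 and passed in 6. Leaving out AJcl baseline replicate 3 or ByJcl Day 5 replicate 1 also lost Per2, AJcl Day 5 replicate 2 or 3 lost Tef, and ByJcl baseline replicate 3 lost Arntl. DESeq2 called the same 4 genes, with adjusted p of 6.53e-09 for Per3, 0.00112 for Arntl, 0.00571 for Tef and 0.00587 for Per2, against 15.8% of all genes.

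The other 6 members were not called in ByJcl. Nr1d2, a REV-ERB, had 377, 387 and 257 CPM at baseline and 290, 247 and 198 CPM on Day 5 (log2 fold change -0.44 ± 0.20; edgeR, adjusted p = 0.178). Clock was at 127, 115 and 129 CPM and then 83.6, 128 and 134 CPM (log2 fold change -0.08 ± 0.18; edgeR, adjusted p = 0.819). Day 5 replicate 1 alone was low for Clock, and Nr1d2 overlapped only through its lowest baseline library.

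Per1, a repressor that also responds quickly to light, hormones and cyclic AMP, was at 305, 387 and 338 CPM in ByJcl at baseline and 506, 392 and 138 CPM on Day 5. The Day 5 libraries lay on both sides of the baseline range, and the log2 fold change was 0.05 ± 0.35 (SE; edgeR, adjusted p = 0.951). In AJcl, Per1 had 206, 279 and 237 CPM at baseline and 233, 355 and 388 CPM on Day 5. The tested Day 5 libraries were above all baseline libraries there, as in 13.3% of genes (log2 fold change 0.64 ± 0.39; edgeR, adjusted p = 0.666), and the excluded library was inside the baseline range.

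Dbp, Nr1d1 and Ciart spread too widely in ByJcl for a change to be resolved. Dbp, a D-box activator with a large daily swing in most tissues, was at 233, 338 and 75.1 CPM at baseline and 232, 64.4 and 34.5 CPM on Day 5. Nr1d1, the repressor REV-ERB alpha, was at 198, 315 and 35.8 CPM at baseline and 269, 96.9 and 51.4 CPM on Day 5. In both genes baseline replicate 3 lay well below the other baseline libraries and Day 5 replicate 1 well above the other Day 5 libraries, so that the times overlapped.

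Ciart, a repressor of the CLOCK and BMAL1 pair, was at 7.52, 15.4 and 3.05 CPM in ByJcl at baseline and 20.0, 11.6 and 2.46 CPM on Day 5, and its groups overlapped fully. The log2 fold changes in ByJcl were -0.92 ± 0.67 for Dbp, -0.35 ± 0.71 for Nr1d1 and 0.44 ± 0.70 for Ciart (SE; edgeR, adjusted p = 0.425, 0.802 and 0.742). Without ByJcl Day 5 replicate 1 these became -2.10, -1.28 and -0.28 and none passed.

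**Figure D2:**
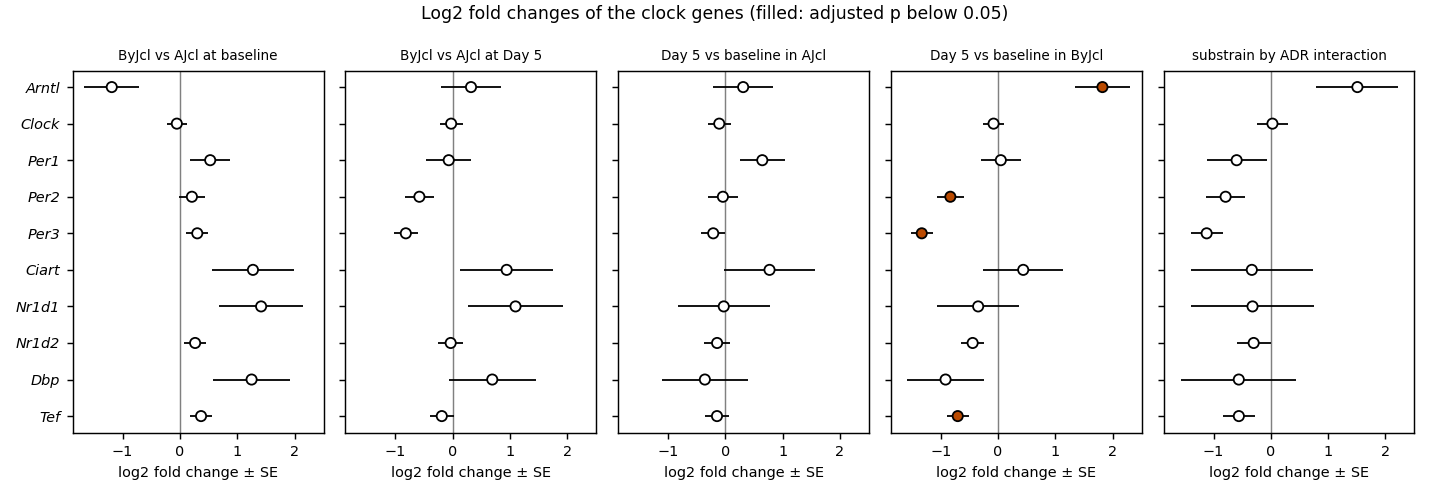
Log2 fold change of each clock gene with its standard error in the 5 comparisons, from edgeR on 11 libraries. Filled points have an adjusted p below 0.05, and all 4 of them lie in the comparison of Day 5 with baseline in ByJcl (Per3 -1.33, Per2 -0.83, Tef -0.70, Arntl 1.82).

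In AJcl no member was called between baseline and Day 5 (edgeR), where 0.312% of all tested genes were. None had an unadjusted p below 0.05 (9.8% of genes) and none was called by DESeq2 (1.77% of genes). Dbp had 113, 108 and 52.5 CPM at baseline and 80.3, 52.4 and 88.0 CPM on Day 5, and Nr1d1 had 82.7, 83.1 and 41.4 CPM and then 38.6, 43.8 and 89.4 CPM. Both overlapped. Nr1d2 went from 324, 309 and 229 CPM to 282, 261 and 253 CPM. Ciart had 5.40, 3.22 and 2.22 CPM at baseline and 7.84, 3.78 and 8.28 CPM on Day 5, and Clock had 107, 149 and 136 CPM and then 71.3, 135 and 105 CPM. The log2 fold changes of the 10 genes in AJcl ran from -0.36 (Dbp) to 0.77 (Ciart), with a median of -0.08. They rested on the 2 tested Day 5 libraries: Ciart was at 0.058 without AJcl Day 5 replicate 3 and at 1.22 without replicate 2, and at 1.46 when the replicate number was a term of the model.

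The changes between baseline and Day 5 were compared directly between the substrains. The substrain by ADR interaction, the log2 fold change in ByJcl minus that in AJcl, was -1.12 ± 0.28 for Per3, -0.79 ± 0.34 for Per2, -0.56 ± 0.28 for Tef and 1.51 ± 0.72 for Arntl (SE). The edgeR adjusted p was 0.620, 0.620, 0.640 and 0.632 respectively. No member and no other gene of the 17002 was called for the interaction by edgeR (0%). The unadjusted p was below 0.05 for 1363 genes (8.02%), among them 2 members, Per3 and Per2. DESeq2 called 22 genes (0.143%), none of them a member, with Per3 at an adjusted p of 0.0980. A call in ByJcl and none in AJcl, which has 2 tested libraries on Day 5, is therefore not a difference between substrains that passed a test.

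Between the untreated substrains no member was called (edgeR), against 0.159% of tested genes, and the fold changes of ByJcl over AJcl were positive for the period genes, Ciart, the REV-ERBs, Dbp and Tef and negative for Arntl and Clock. Only Arntl had an unadjusted p below 0.05 (8.34% of genes), and DESeq2 called no member (0.631% of genes). Arntl was lower in all 3 ByJcl libraries than in all 3 AJcl libraries, as 6.3% of genes were (log2 fold change -1.19 ± 0.48; edgeR, adjusted p = 0.583). Per1 was higher without overlap, as 8.22% of genes were (log2 fold change 0.53 ± 0.35; edgeR, adjusted p = 0.664). Nr1d1, Ciart and Dbp had fold changes of 1.42 ± 0.73, 1.27 ± 0.72 and 1.25 ± 0.68 on the log2 scale, but ByJcl replicate 3 lay within or below the AJcl range in each. Without ByJcl baseline replicate 2 they were 0.80, 0.58 and 0.79. Log2 fold changes were 0.37 for Tef, 0.30 for Per3, 0.26 for Nr1d2, 0.21 for Per2 and -0.06 for Clock. Thus 8 of 10 were positive, with a median of 0.33 against 0.01 for all tested genes.

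At Day 5 no member was called between the substrains by edgeR, against 0.165% of tested genes. Per3 was lower in all ByJcl libraries than in the tested AJcl libraries (log2 fold change -0.82 ± 0.21; edgeR, adjusted p = 0.149), as was Per2 (-0.58 ± 0.25; edgeR, adjusted p = 0.339), a pattern of 17.2% of genes. These 2 genes alone had an unadjusted p below 0.05 (14% of genes). DESeq2 called Per3 (adjusted p = 0.0161), where it called 3.49% of genes. The excluded AJcl library, at 61.9 CPM for Per3, lay inside the ByJcl Day 5 range, as it did for Per2 at 159 CPM. Nr1d1, Ciart, Dbp and Arntl had log2 fold changes of 1.10, 0.94, 0.69 and 0.32, and Tef, Per1, Nr1d2 and Clock of -0.19, -0.07, -0.04 and -0.03. Without ByJcl Day 5 replicate 1, Nr1d1 was at 0.16, Ciart at 0.22, Dbp at -0.50 and Arntl at 0.67 on that scale, and under a block on the replicate number Nr1d1 was at 0.19 and Ciart at 0.023. These 2 comparisons and those of Day 5 with baseline share libraries and are not independent of each other.

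The members differed greatly in how far replicates of the same group lay apart. The pooled within-group SD of log2(CPM + 0.5) was 1.10 for Nr1d1, larger than in 99.6% of the tested genes, 0.99 for Ciart (98.9%) and 0.97 for Dbp (98.8%). Arntl followed at 0.61 (95.2%) and Per1 at 0.55 (93.9%). The median gene had an SD of 0.24, and Tef (0.24) and Nr1d2 (0.26) were close to it. Per2 (0.36), Per3 (0.34) and Clock (0.33) lay between. All these SDs include the excluded AJcl Day 5 replicate 1. Its deviations from the group mean were -0.39 for Per2, -0.54 for Per3 and -0.49 for Clock. SDs without it were not calculated. Among genes within 0.5 log2 units of the same mean level, Nr1d1 exceeded 99.6%, Dbp 98.8%, Per1 98.0%, Ciart 97.7%, Per2 89.9%, Arntl 86.7%, Per3 86.5% and Clock 85.0%, and Nr1d2 exceeded 68.8% and Tef 59.6%.

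**Figure D3:**
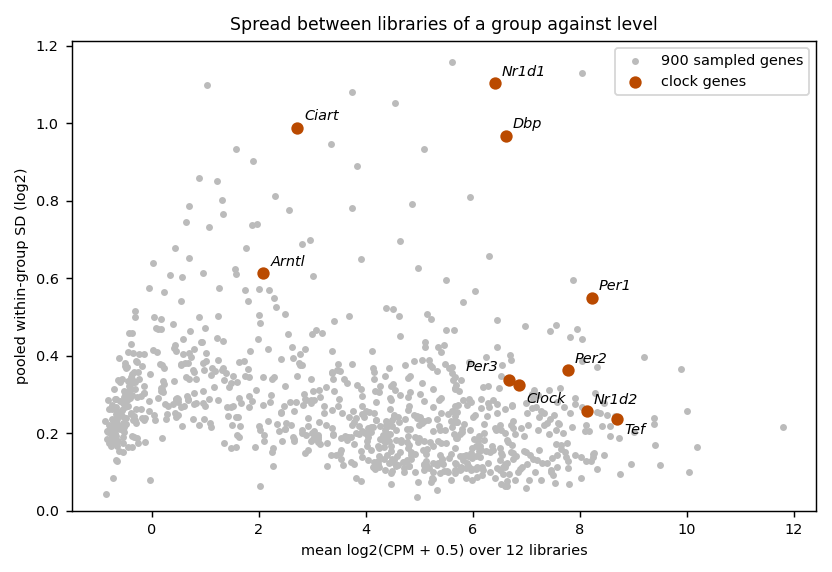
Pooled within-group SD of each gene (vertical, log2 units) against its mean level (horizontal, log2(CPM + 0.5) over 12 libraries), for the 10 clock genes and 900 sampled tested genes. Nr1d1, Ciart and Dbp, with SDs of 1.10, 0.99 and 0.97, lie near the upper edge of the sampled genes, and Tef and Nr1d2 lie within the bulk.

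In 3 of the 4 groups this spread was shared between genes. In ByJcl baseline, Dbp, Nr1d1, Ciart, Nr1d2 and Tef were all lowest in replicate 3 and highest in replicate 2. In ByJcl Day 5 the same 5 genes were all highest in replicate 1 and lowest in replicate 3, and in AJcl baseline all 5 were lowest in replicate 3. AJcl Day 5 showed no such order: Dbp and Ciart were lowest in replicate 2, where Tef was highest, and Nr1d1 was lowest in replicate 1, where Nr1d2 was highest. Arntl ran the other way in ByJcl Day 5, lowest in replicate 1 and highest in replicate 3, and was highest in replicate 3 of AJcl baseline. In ByJcl baseline it did not, since its highest library was replicate 2, as for the 5 genes. In the excluded library, which is AJcl Day 5 replicate 1, Dbp, Nr1d1 and Tef lay within or just below the range of the other AJcl libraries. Summed tubule markers moved with this order in 2 of the 3 groups. They were at 1682, 1009 and 3555 CPM in AJcl baseline and 323, 894 and 1286 CPM in ByJcl Day 5, highest in replicate 3 of both, where the 5 genes were lowest. In ByJcl baseline, at 392, 1514 and 1363 CPM, they did not follow it. The part of tubule content in this spread was not tested.

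The ratio of Dbp to Arntl, both in CPM, sets the 2 genes against each other in a single figure for each library. In ByJcl it was 228, 140 and 34.4 at baseline and 82.5, 10.6 and 3.24 on Day 5. In AJcl it was 37.9, 32.3 and 7.88 at baseline and 24.3, 11.8 and 14.4 on Day 5. The highest and the lowest of the 12 ratios were both from ByJcl. The ByJcl times overlapped, since Day 5 replicate 1 was above baseline replicate 3. Collection hour was not available to set beside these ratios, and its part in them was not tested.

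**Figure D4:**
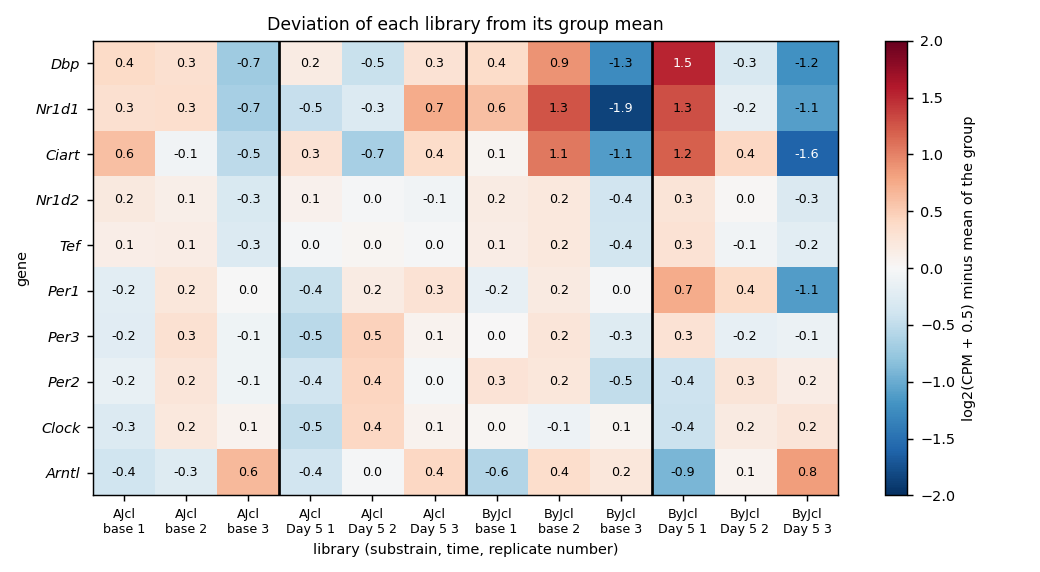
Deviation of each library from its group mean, in log2(CPM + 0.5), for the 10 clock genes (vertical axis) in the 12 libraries (horizontal axis), with red above and blue below the mean. Dbp, Nr1d1, Ciart, Nr1d2 and Tef share signs in ByJcl baseline replicate 3 and ByJcl Day 5 replicates 1 and 3, with Arntl of the opposite sign in each of them.

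Within groups, Pearson's r of these deviations with those of Dbp over 12 libraries was 0.94 for Nr1d1, 0.92 for Tef, 0.92 for Ciart and 0.91 for Nr1d2, and it was -0.68 for Arntl and -0.60 for Clock. Per1 (0.57), Per3 (0.38) and Per2 (-0.05) followed Dbp less closely. Per2 was closer to Clock, with r of 0.71, and the excluded AJcl Day 5 replicate 1 was low in both. The points share 4 group means and the 12 libraries, and the values are descriptions.

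Over the levels themselves, Nr1d2 was ranked at 3, Nr1d1 at 8, Tef at 17 and Ciart at 76 of 17001 genes for the correlation with Dbp (r of 0.90, 0.88, 0.84 and 0.72 over 12 libraries). Arntl was at 33 from the bottom (r of -0.77). The gene most like Dbp was Bhlhe41, which encodes the clock repressor DEC2 (r of 0.97, Spearman's rho of 0.97). Without ByJcl baseline replicates 1 and 2, the libraries farthest from the median, r over 10 libraries was 0.93 for Bhlhe41, 0.78 for Nr1d2, 0.76 for Nr1d1, 0.68 for Ciart, 0.64 for Tef and -0.70 for Arntl. It dropped to 0.15 for Per3 and turned to -0.38 for Per2.

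Thra, Oaz2, Cygb and Gm29776 completed the 5 non-members most like Dbp (r of 0.90, 0.89, 0.88 and 0.88). Thra, a thyroid hormone receptor, overlaps Nr1d1 tail to tail. The 5 least like it were Avpr1a (r of -0.90), Leo1 (-0.87), Tigar (-0.86), Nfil3 (-0.85) and Ncoa4 (-0.85). Nfil3 encodes the D-box repressor E4BP4, a known antagonist of DBP, and was at 3.41, 3.88 and 7.21 CPM in ByJcl baseline and 5.19, 11.9 and 15.5 CPM in ByJcl Day 5. Bhlhe41 was at 84.7, 111 and 31.6 CPM and then 65.6, 34.8 and 25.0 CPM in the same libraries. Neither passed in ByJcl (log2 fold change 1.19 ± 0.42 for Nfil3 and -0.82 ± 0.44 for Bhlhe41; edgeR, adjusted p = 0.0978 and 0.261).

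A list of 22 other clock genes, all tested, held the cryptochromes, RORs, kinases and further outputs. In ByJcl 3 of them fell between baseline and Day 5, 1 rose and 18 were not called (edgeR), with a median log2 fold change of 0.10. The shares of all tested genes called there were 4.83% lower and 5.75% higher, so the single rise is near the background. Rora, an activator that competes with the REV-ERBs at ROREs, was at 168, 159 and 163 CPM at baseline and 79.2, 94.0 and 89.2 CPM on Day 5 (log2 fold change -0.87 ± 0.15; edgeR, adjusted p = 0.00563). Hlf, the PAR bZIP relative of Dbp and Tef, was at 105, 167 and 67.8 CPM and then 61.9, 43.7 and 54.0 CPM (log2 fold change -1.05 ± 0.26; edgeR, adjusted p = 0.0265). Neither overlapped between times, as for 17.7% of tested genes that were lower, although the baseline libraries of Hlf lay far apart.

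Btrc, whose ubiquitin ligase subunit marks period proteins for degradation, was at 64.8, 65.0 and 71.2 CPM at baseline and 52.1, 41.1 and 49.1 CPM on Day 5 (log2 fold change -0.47 ± 0.11; edgeR, adjusted p = 0.0236). Bhlhe40, the DEC1 repressor, was at 52.1, 79.9 and 49.5 CPM and then 81.4, 96.4 and 90.7 CPM (log2 fold change 0.60 ± 0.16; edgeR, adjusted p = 0.0363). Both were also without overlap between times (17.7% of tested genes lower, 15.9% higher). The cryptochromes Cry1 and Cry2 had log2 fold changes of -0.27 and -0.24 and were not called (edgeR, adjusted p = 0.555 and 0.506). None of the 22 genes was called in the other 4 comparisons (edgeR). The smallest adjusted p there were for Csnk1e (0.27, adjusted p = 0.573) and Cry2 (0.49, adjusted p = 0.583) at baseline, for Csnk1e (0.39, adjusted p = 0.166) and Bhlhe40 (0.57, adjusted p = 0.215) at Day 5, for Nampt (0.39, adjusted p = 0.562) and Tipin (0.33, adjusted p = 0.666) in AJcl, and for Rora (-0.61, adjusted p = 0.620) and Nfil3 (1.58, adjusted p = 0.620) in the interaction, each with its log2 fold change.

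Glucocorticoids and immediate early signals also reach clock genes, Per1 above all, so genes that respond to them are given beside the clock. Of 11 glucocorticoid-induced genes, 6 rose in ByJcl after ADR (edgeR), against 5.75% of all tested genes, namely Fkbp5 (log2 fold change 1.96; adjusted p = 0.0387), Klf9 (0.64; adjusted p = 0.0471), Pdk4 (3.08; adjusted p = 0.0136), the metallothioneins Mt1 (1.85; adjusted p = 0.00522) and Mt2 (3.29; adjusted p = 0.00325), and Cdkn1a (5.04; adjusted p = 1.60e-05), the last also a p53 target. Fkbp5 differed widely among ByJcl Day 5 libraries, at 74.1, 398 and 141 CPM against 49.1 to 59.9 CPM at baseline. Tsc22d3, a classical glucocorticoid target, was at 403, 617 and 230 CPM on Day 5 against 313 to 405 CPM at baseline and was not called. In AJcl 1 of the 11 rose, Cdkn1a (log2 fold change 3.94; edgeR, adjusted p = 0.000257). Of 18 immediate early genes, 11 rose in ByJcl (edgeR), against 5.75% of all tested genes, with log2 fold changes of 4.44 for Fosl1, 2.13 for Egr3, 1.19 for Fosl2, 1.06 for Fosb, 1.00 for Atf3, 0.94 for Junb, 0.93 for Fos, 0.91 for Ier3, 0.81 for Zfp36, 0.69 for Klf4 and 0.56 for Jund. None of the 18 was called in AJcl, where Egr3 (2.05; edgeR, adjusted p = 0.192) and Fosl2 (0.86; edgeR, adjusted p = 0.265) had the smallest adjusted p. Neither list had a call between the substrains or in the interaction (edgeR). The smallest adjusted p were for Errfi1 (-0.42, adjusted p = 0.697), Mt2 (-0.57, adjusted p = 0.702), Egr2 (0.87, adjusted p = 0.612) and Nr4a1 (0.53, adjusted p = 0.666) at baseline and for Mt2 (1.70, adjusted p = 0.217), Cdkn1a (0.80, adjusted p = 0.278), Fosl1 (3.22, adjusted p = 0.0902) and Atf3 (1.16, adjusted p = 0.157) at Day 5, each with its log2 fold change. In the interaction they were for Mt2 (2.27, adjusted p = 0.620), Cdkn1a (1.11, adjusted p = 0.620), Fosl1 (3.69, adjusted p = 0.620) and Atf3 (0.86, adjusted p = 0.623). Per1 was not called in either substrain. Kidneys were minced and digested with collagenase before glomeruli were collected, and the part of this isolation in the immediate early genes was not tested.

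Markers of glomerular cells also changed in ByJcl between baseline and Day 5. All 8 podocyte markers fell (edgeR), with a median log2 fold change of -1.20, from a summed level of 18567 to 20649 CPM at baseline to 7031 to 10301 CPM on Day 5. Of 7 endothelial markers 2 fell (Ehd3 -0.81 and Flt1 -0.54), Cd68 rose among 7 immune markers (1.17), and none of 6 tubule and 6 mesangial markers was called (edgeR). These counts stand beside 4.83% of all tested genes called lower and 5.75% called higher, and the single immune marker is no result about immune cells. Called or not, 5 endothelial markers had negative and 2 positive log2 fold changes. Of the immune markers 4 were negative and 3 positive. The tubule markers summed to 392, 1514 and 1363 CPM at baseline and 323, 894 and 1286 CPM on Day 5, so they were low in replicate 1 at both times. The part of these shifts in the falls of Per2, Per3 and Tef was not tested. Between the substrains no marker was called (edgeR). Median log2 fold changes of ByJcl over AJcl at baseline were 0.22 for podocyte, -0.93 for tubule and 0.69 for immune markers. Those of endothelial and mesangial markers were 0.14 and 0.22. At Day 5 the values were -0.66, -1.11 and 1.18, and -0.28 and 0.21. Their part in the clock genes between substrains was not tested.

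Several members share exon bases with another gene of the count tables, on the opposite strand, in the GENCODE vM39 annotation of GRCm39, and the strand setting of the counting is not given in the sources used here, so such reads cannot be told apart. Nr1d1 (chromosome 11, 98658752 to 98666188) shares 1694 bases with Thra, Clock (chromosome 5, 76342860 to 76452846) 2047 with Tmem165 and 124 with Gm7467, and Dbp (chromosome 7, 45354512 to 45359627) 539 with Sphk2. Thra was at 77.8 to 136 CPM over the libraries, Sphk2 at 32.3 to 51.2 CPM and Tmem165 at 60.4 to 81.4 CPM, none called in any comparison. Ciart (chromosome 3, 95785815 to 95789991) and Tef (chromosome 15, 81686622 to 81711064) share 250 and 193 bases with a long noncoding RNA each.

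Per3 (chromosome 4, 151081373 to 151129140) shares 154 bases with Uts2, which fell in ByJcl (log2 fold change -2.71; edgeR, adjusted p = 0.0160) but reached only 0.70 CPM at most, against 53.4 to 183 CPM for Per3. No exon bases shared with another counted gene were found for Per1 (chromosome 11, 68986035 to 69002300), Per2 (chromosome 1, 91343700 to 91387069), Nr1d2 (chromosome 14, 4230545 to 4266624) or Arntl (chromosome 7, 112806152 to 112914735).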

How the data were processed

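Glomerulus-enriched RNA of 12 mouse libraries was sequenced after poly(A) selection with a strand-specific kit as paired-end reads. The authors used FastQC and Trimmomatic, aligned with STAR to GRCm39 and counted with featureCounts. They deposited raw counts of 26264 gene symbols per library. The study's methods give the tool versions, while the annotation and the strand setting are not given in the sources used here. Between 77.1% and 82.9% of counts from 1 to 49 were even in each library, so halved counts were tried.

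The 10 members and the lists of genes were chosen with earlier results of these data known. Groups came from the sample labels. Counts were filtered with filterByExpr, scaled by TMM and tested with edgeR 4.0.16 (quasi-likelihood, 1 coefficient per group, 11 libraries, 7 residual degrees of freedom) in R 4.3.3. P-values were adjusted by Benjamini-Hochberg over 17002 genes, with calls below 0.05. The fit was tested on simulated counts. DESeq2 1.42.0, other scaling, filters, libraries and a replicate block were alternatives. The genes named are all members, the clock, glucocorticoid and immediate early genes of the lists that were called or, where a comparison called none, the 2 with the smallest adjusted p, the 5 genes most and least like Dbp, and overlapping genes. The values of Cry1, Cry2 and Tsc22d3 for ADR in ByJcl and the markers Ehd3, Flt1 and Cd68 fall outside this rule and were chosen after their values were seen. Replicate pairs differed by 44.6 to 271 in chi-square per degree of freedom, so none was a copy.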

Additional observations from a re-analysis of the deposited data

How the results depend on the processing

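The 4 ByJcl calls (Per2, Per3, Tef, Arntl) were kept by DESeq2, RLE scaling, both other filters and halved counts. Between baseline and Day 5 in ByJcl, all 12 libraries gave 1197 called genes instead of 1800, with 3 members and Per2 lost. Leaving out libraries gave 684 to 2051 genes and 1 to 4 members there, 12 to 30 genes between untreated substrains, 9 (without AJcl Day 5 replicate 2) to 232 (without replicate 3) between substrains at Day 5, 12 (without AJcl Day 5 replicate 3) to 176 (without replicate 2) for ADR in AJcl and 0 to 5 (without AJcl Day 5 replicate 3) for the interaction. In those 2 fits the lone AJcl Day 5 library is assumed to vary like the other groups. DESeq2 called 101 genes at baseline, 535 at Day 5 with 1 member (Per3), 301 in AJcl and 22 for the interaction, against 27, 28, 53 and 0. Without a filter 56 genes were called at Day 5 and 99 in AJcl, and with 12 libraries 72 at Day 5. The cause was not tested.

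Replicate numbers did not pair the libraries in every group. Deviations of same-numbered libraries correlated between -0.37 and 0.51, with 7 of 18 pairs over 0.1. At most 3 of 6 libraries matched best with their own number. Replicate 3 of AJcl baseline, ByJcl baseline and ByJcl Day 5 correlated with r of 0.28 to 0.47. Every same-numbered pair of AJcl Day 5 with ByJcl was negative. What libraries of the same number share was not tested. With the replicate block the same 4 members were called in ByJcl among 1592 genes, 1459 of them shared with the 1800, and 26 genes were called in AJcl. Log2 fold changes of uncalled members that turned sign under the block were Dbp (-0.26) and Clock (0.057) at Day 5, Dbp (0.28), Nr1d1 (0.64) and Arntl (-0.0059) in AJcl and Per1 (-0.037) in ByJcl, and with 12 libraries Per1 (0.13) and Clock (0.18) at Day 5.

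None of the uncalled members whose sign turned when libraries were left out passed a test. Their log2 fold changes ran at Day 5 from -0.21 to 0.67 (Arntl), -0.19 to 0.15 (Clock), -0.50 to 1.14 (Dbp), -0.19 to 0.11 (Nr1d2) and -0.47 to 0.32 (Per1), and at baseline from -0.21 to 0.071 (Clock). In AJcl they ran from -0.29 to 0.033 (Clock), -0.67 to 0.40 (Nr1d1) and -0.28 to 0.14 (Per2), and in ByJcl from -0.28 to 1.13 (Ciart), -0.17 to 0.10 (Clock), -1.28 to 0.27 (Nr1d1) and -0.35 to 0.45 (Per1). For the interaction they ran from -1.05 to 0.40 (Ciart), -0.10 to 0.22 (Clock) and -1.25 to 0.34 (Nr1d1).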
